A study of Rattus norvegicus with 4 samples.

Results

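Gbp2 and 6 further GTPases that interferon-gamma induces (Gbp4, Gbp5, Gbp7, Igtp, Irgm and Ifi47) were followed across junctional and peri-implant epithelium of the rat. A probe set was taken as a member where the platform annotation gives it a single gene symbol and that symbol is on this list. This gave 6 probe sets for 5 genes among 31042 probe sets in all, 1 each for Gbp2, Gbp4, Gbp7 and Irgm and 2 for Igtp. No probe set was matched to Gbp5 or Ifi47, which were therefore not measured here. A further probe set is annotated to Igtp together with Irgm2 and Igtpl1 and is given separately. The members were listed with results of these data known, and Gbp2 is named in the title of the series for these samples, so neither choice is independent of the comparison.

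Guanylate-binding proteins (Gbp) and immunity-related GTPases (Igtp, Irgm, Ifi47) are 2 families of GTPases that cells make after interferon-gamma binds its receptor. Guanylate-binding proteins assemble on vacuoles that hold microbes and on bacteria that reach the cytosol, and they promote inflammatory caspase activation. Immunity-related GTPases disrupt such vacuoles, while Irgm and Igtp belong to the regulatory branch that guards the cell's own membranes.

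The samples came from 20 male Sprague Dawley rats, obtained when 4 weeks old, which underwent surgery and were sampled 4 weeks after an implant was placed. Epithelium was cut from frozen sections by laser microdissection, as junctional epithelium, the collar that seals gingiva to tooth (2 arrays), and as peri-implant epithelium, its counterpart at the implant (2 arrays). All 4 samples carry the same treatment label of tooth extraction with implant placement; the labels do not say which animals gave which sample or how many rats stand behind each one. No label says that the samples of a group came from separate animals, so p-values measure only the spread between these samples, which may be technical.

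The unit is the log2 signal of a probe set. The highest signal of 27 control probe sets for bacterial genes on any array, 6.42, served as the background level, and 54.6% to 56.8% of probe sets exceeded it on each array. With 2 arrays a group, precision is limited by their number. A difference was called where limma's adjusted p passed 0.05 with a variance prior that follows the signal level. By this rule 4.74% of all probe sets were higher and 4.16% lower in peri-implant epithelium. With limma's default prior 0 probe sets passed in either direction, while 5247, or 16.9%, had an unadjusted p below 0.05.

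The members lie in clusters of the rat genome (assembly GRCr8, RefSeq genes, all protein-coding). Gbp5 (chr2:233910999-233930320), Gbp7 (chr2:233948774-233970532), Gbp4 (chr2:233978163-233992124) and Gbp2 (chr2:234005727-234021812) follow one another within 110.8 kb of chromosome 2. Irgm (chr10:33734640-33742720) and Ifi47 (chr10:33798744-33806374) lie within 71.7 kb of chromosome 10. Igtp (chr10:42875047-42882866) stands elsewhere on chromosome 10, beside Irgm2, a regulatory GTPase of the same family that is no member.

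The sequences upstream of these genes are shown because interferons act there, through the interferon-stimulated response element (ISRE), bound by interferon regulatory factors, and the gamma-activated site (GAS), an element of genes that interferon-gamma induces. The ISRE core was searched as GAAA, any 2 bases and GAAA (on the other strand TTTC, any 2 bases and TTTC), and GAS as TTCNNNGAA, which reads alike on both strands, in the 250 bases before the annotated start. The ISRE core was present in 6 of 7 members, against 3.41% of 33469 RefSeq promoters of the same length, and GAS in 4 of 7, against 7.67%. These counts are a description, since the members were listed as genes that interferon-gamma induces. Several members are neighbouring genes of the same family, so they do not count independently. Matches to the 2 motifs did not overlap. The bases upstream of Gbp2, the member with the largest called difference (chr2:234005477-234005726, plus strand), run 5′ to 3′ as follows, with the ISRE core, 31 to 22 bases before the start, in capitals. No GAS was found among them.
Gbp2: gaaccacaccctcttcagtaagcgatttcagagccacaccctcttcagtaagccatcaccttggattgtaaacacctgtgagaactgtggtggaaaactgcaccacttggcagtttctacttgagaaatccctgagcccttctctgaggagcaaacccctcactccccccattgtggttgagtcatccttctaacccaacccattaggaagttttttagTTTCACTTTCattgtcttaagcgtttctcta

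The guanylate-binding protein genes all had the core in the same orientation and within 56 bases of the start, as the windows below show with the core in capitals. They come from chr2:234005686-234005715 for Gbp2, chr2:233910933-233910962 for Gbp5, chr2:233948838-233948867 for Gbp7 and chr2:233978466-233978485 for Gbp4, all on the plus strand, and the Gbp4 window ends at its annotated start. Gbp5 and Gbp7 share the same 10 letters of the core, 56 to 47 and 41 to 32 bases before the start. The starts of Gbp7, Gbp4 and Irgm in the promoter table lie 115, 323 and 142 bases inside the gene's outer end.
Gbp2: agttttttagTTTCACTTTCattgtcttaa
Gbp5: acttgtgtagTTTCAATTTCagtttagagg
Gbp7: gcctttgtagTTTCAATTTCagttctctgt
Gbp4: agaagcagggTTTCGATTTC

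Igtp and Irgm, in contrast, had the core in the other orientation with a GAS just before it, and 2 bases between them. Irgm2 had the same arrangement and is shown for comparison. The windows come from chr10:42874929-42874958 (Igtp, plus strand), chr10:33742598-33742627 (Irgm, minus strand) and chr10:42889853-42889882 (Irgm2, plus strand), with the GAS and then the ISRE core in capitals. This arrangement, which was chosen for description after the sequences were seen, occurred in 7 of 33469 promoters, or 0.021%. Besides Igtp, Irgm and Irgm2, the genes with it included Parp14, an interferon-inducible ADP-ribosyltransferase. For Ifi47 no core was found, and the closest stretch (chr10:33798684-33798713, plus strand, in capitals below) differed from TTTC, 2 bases and TTTC by C10T, counted from the first letter of that motif.
Igtp: tcacTTCCAGGAAccGAAACTGAAAgcagt
Irgm: tcgtTTCAAGGAAtaGAAACTGAAAccgac
Irgm2: cggtTTCTAGGAAccGAAACTGAAAgctgt
Ifi47: aaaggtttagTTTCACTTTTgtttcctgaa

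**Figure D1:**
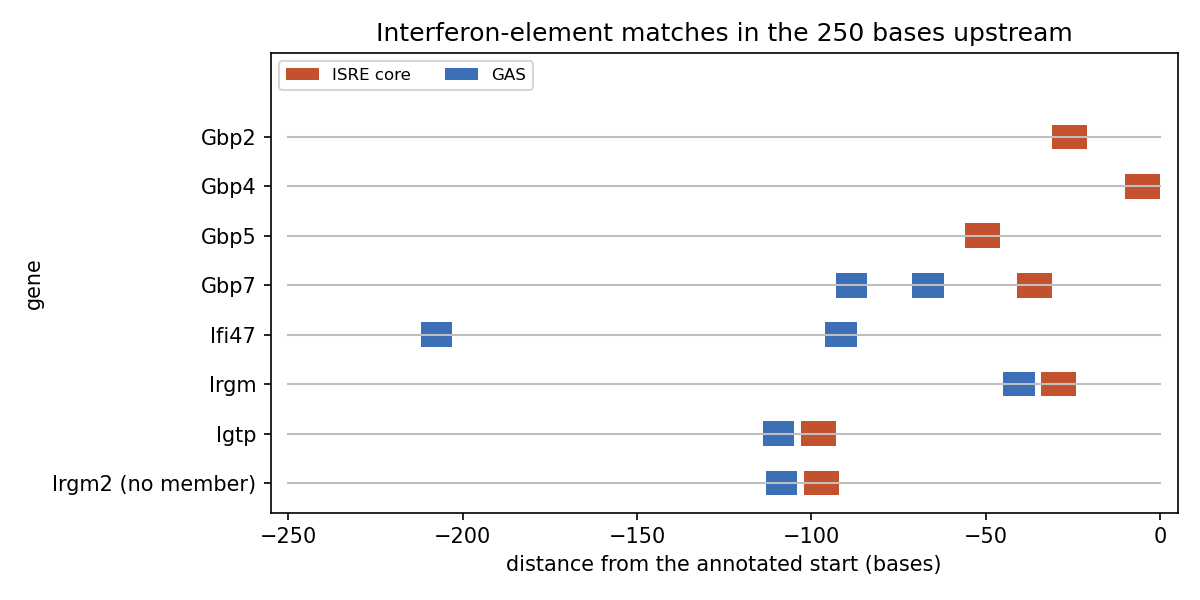
Matches to the ISRE core (red) and GAS (blue) in the 250 bases upstream of the 7 members and of Irgm2, by distance in bases from the annotated start at 0. The guanylate-binding protein genes have the core within 56 bases of the start, Igtp, Irgm and Irgm2 have a GAS directly before it, and Ifi47 has GAS matches only. Gbp7 also has 2 GAS matches, farther from its core.

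In peri-implant epithelium the guanylate-binding protein transcripts Gbp2 and Gbp7 rose, Irgm was higher without passing the test, and Igtp differed by less than the spread between its arrays. Of the 6 member probe sets, 2 rose and 0 fell, against 4.74% and 4.16% of all probe sets. The other 4 did not pass. With the default prior 0 of 6 passed. In that fit 4 of 6, among them Gbp4, had an unadjusted p below 0.05, against 16.9% of all probe sets. The median difference was 1.33 against 0.02 over all probe sets, and 4 of 6 had groups that did not overlap with peri-implant higher, which holds for 27.8% of all probe sets, with 25.4% separated in the lower direction. Without Gbp4, which lay below background on all 4 arrays, the median was 0.99 and 3 of 5 did not overlap. All 6 differences were positive, but those of both Igtp probe sets turned sign on leaving out 1 array.

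Gbp2 (probe set 1368332_at), which coats microbial vacuoles and bacteria, had log2 signals of 7.80 and 7.51 on the junctional arrays and of 11.23 and 11.11 on the peri-implant arrays. Both peri-implant arrays were far above both junctional arrays, and the 2 arrays of a group lay close together. The difference was 3.52 ± 0.16 on the log2 scale (SE, n = 2 per group), an 11.5-fold rise, with a 95% interval from 3.15 to 3.88. Limma's adjusted p was 3.53e-06, and 0.125 with the default prior. Among the 15185 probe sets above background on all 4 arrays, this difference had rank 4 in the peri-implant direction. Over all 31042 probe sets it had rank 337. The smaller set leaves out every probe set at or below background on any array, including those that rise from below it. Leaving out any 1 array kept the call, with limma's adjusted p from 0.0075 to 0.0097. In dissected tissue, more cells of a type and more RNA per cell cannot be told apart.

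Gbp7 (1382950_at), a neighbour of Gbp2 on chromosome 2 and a member of the same family, stood just above background in junctional epithelium, at 6.88 and 6.62, and reached 8.19 and 8.66 in peri-implant epithelium. The groups did not overlap, and the peri-implant arrays were farther from each other than the junctional ones. It rose by 1.68 ± 0.30 (SE, n = 2 per group), or 3.2-fold, with a 95% interval from 1.01 to 2.34 and limma's adjusted p of 0.00902, or 0.176 with the default prior. Leaving out any of the 4 arrays ended this call (limma's adjusted p from 0.0739 to 0.139), with differences from 1.45 to 1.91.

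Gbp4 (1385051_at), a further member of that cluster, gave 4.09 and 1.65 on the junctional arrays against 6.35 and 6.13 on the peri-implant arrays. All 4 values lay below the background level of 6.42, so no fold is given, and the order of the arrays is that of signals no higher than those of bacterial controls. The difference of 3.37 ± 1.14 (SE) had a limma adjusted p of 0.0999, or 0.279 with the default prior.

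**Figure D2:**
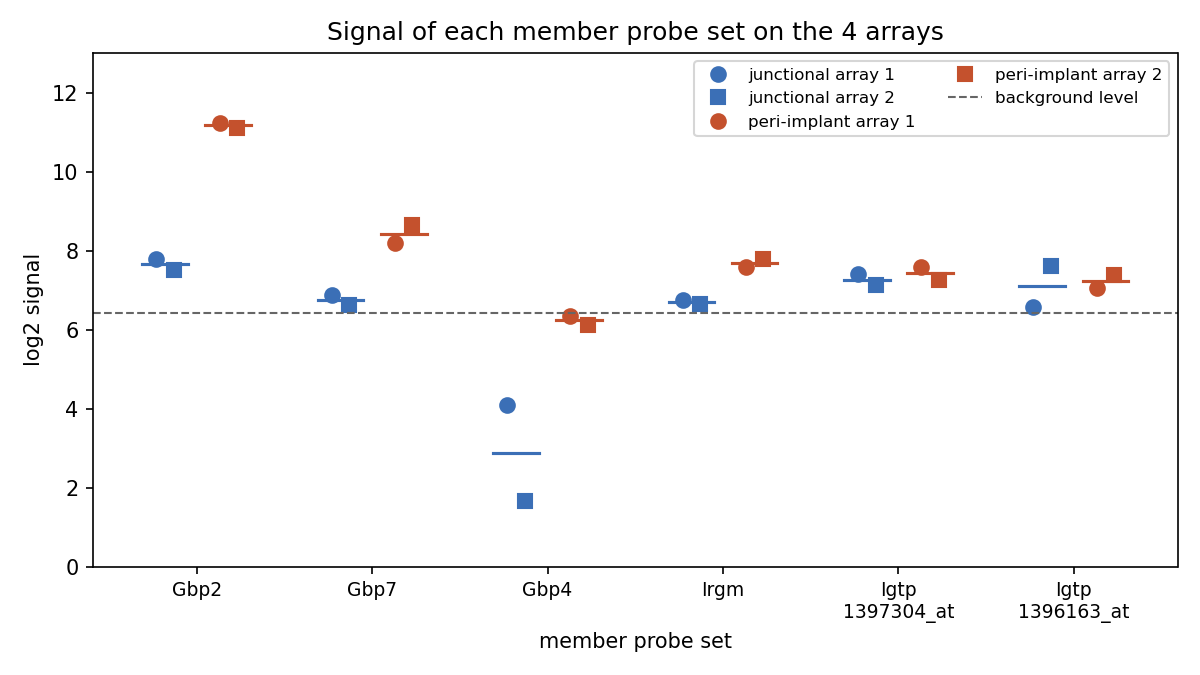
Log2 signal (y axis) of each of the 6 member probe sets (x axis) on the 2 junctional (blue) and 2 peri-implant (red) arrays, with group means as bars and the background level as a dashed line. Gbp2 and Gbp7 separate the groups, all 4 Gbp4 values lie under the dashed line, and the arrays of both epithelia overlap for Igtp.

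Of the immunity-related GTPases, Irgm (1391489_at), a regulatory member, had signals of 6.74 and 6.64 on the junctional arrays against 7.58 and 7.78 on the peri-implant arrays. The groups did not overlap, but the junctional arrays stood only slightly above background. The difference was 0.99 ± 0.32 (SE, n = 2 per group), or 1.98-fold, with a 95% interval from 0.28 to 1.70. Limma's adjusted p of 0.0856 missed the threshold, and it was 0.194 with the default prior. Irgm passed where only probe sets with a group mean above background were tested (limma's adjusted p = 0.0495) and where signals below background were raised to it (limma's adjusted p = 0.0459), and over its 13 alternatives the adjusted p ran up to 0.281.

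Igtp, the other regulatory member, showed no such separation on either probe set. Probe set 1397304_at had 7.39 and 7.13 on the junctional arrays against 7.58 and 7.26 on the peri-implant arrays. Probe set 1396163_at had 6.58 and 7.62 on the junctional arrays against 7.05 and 7.38 on the peri-implant arrays. On both, the junctional and peri-implant arrays overlapped, and on the latter the peri-implant values lay between the junctional ones. The differences were 0.16 ± 0.31 and 0.12 ± 0.40 (SE), with limma's adjusted p of 0.808 and 0.896. Their 95% intervals ran from -0.54 to 0.86 on 1397304_at and from -0.78 to 1.02 on 1396163_at, and with the default prior the adjusted p was 0.756 and 0.916. Both upper bounds lie below the lower bound of 3.15 for Gbp2, and that of 1396163_at lies just above the lower bound of 1.01 for Gbp7. Leaving out 1 array turned the sign on each Igtp probe set, with differences from -0.40 to 0.64 on 1396163_at and from -0.0046 to 0.32 on 1397304_at. The measured rises of Gbp2 and of Gbp7, 3.52 and 1.68, are thus outside these intervals, while rises up to 0.86 and 1.02 are inside them. The Igtp signals, from 6.58 to 7.62, stood not far above the background level of 6.42. How well signals that near background can show a change was not tested.

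The probe set annotated to Igtp, Irgm2 and Igtpl1 together had 3.25 and 5.02 on the junctional arrays against 4.57 and 3.47 on the peri-implant arrays, below background on all 4 arrays. The probe set of Irgm2 alone, the neighbour of Igtp, gave 9.50 and 9.36 on the junctional arrays against 10.38 and 10.22 on the peri-implant arrays. It rose by 0.87 (95% interval 0.57 to 1.18, limma's adjusted p = 0.00525, or 0.206 with the default prior). Leaving out any of the 4 arrays ended this call. How far probes of these closely related genes bind each other's transcripts was not tested.

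**Figure D3:**
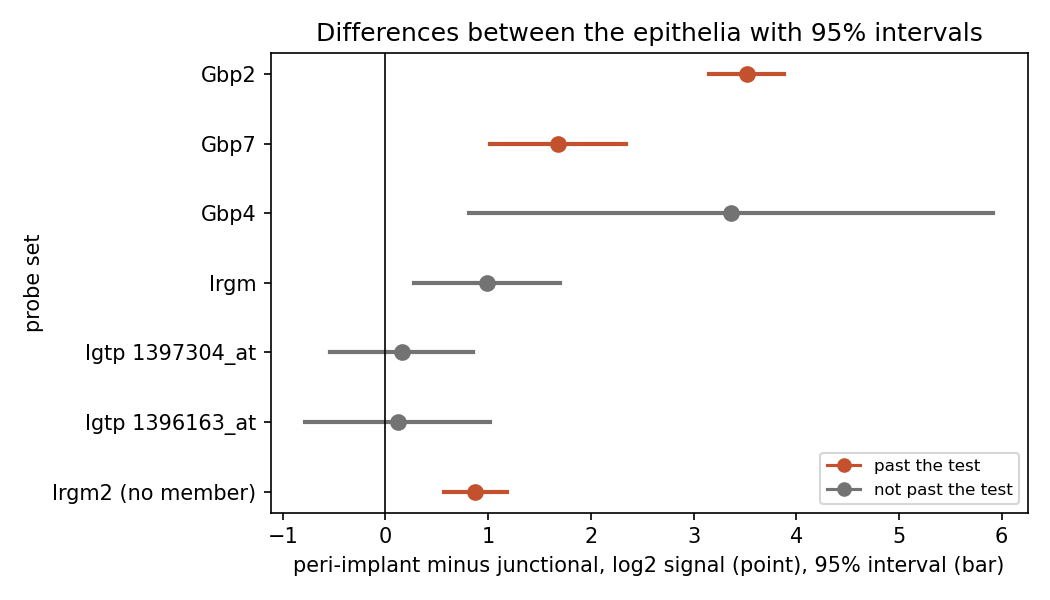
Peri-implant minus junctional difference in log2 signal (x axis, point) with its 95% interval (bar) for the 6 member probe sets and for Irgm2 (y axis). Probe sets past the test are red and the others grey; the interval of Gbp2 starts at 3.15, above the ends of both Igtp intervals at 0.86 and 1.02.

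**Figure D4:**
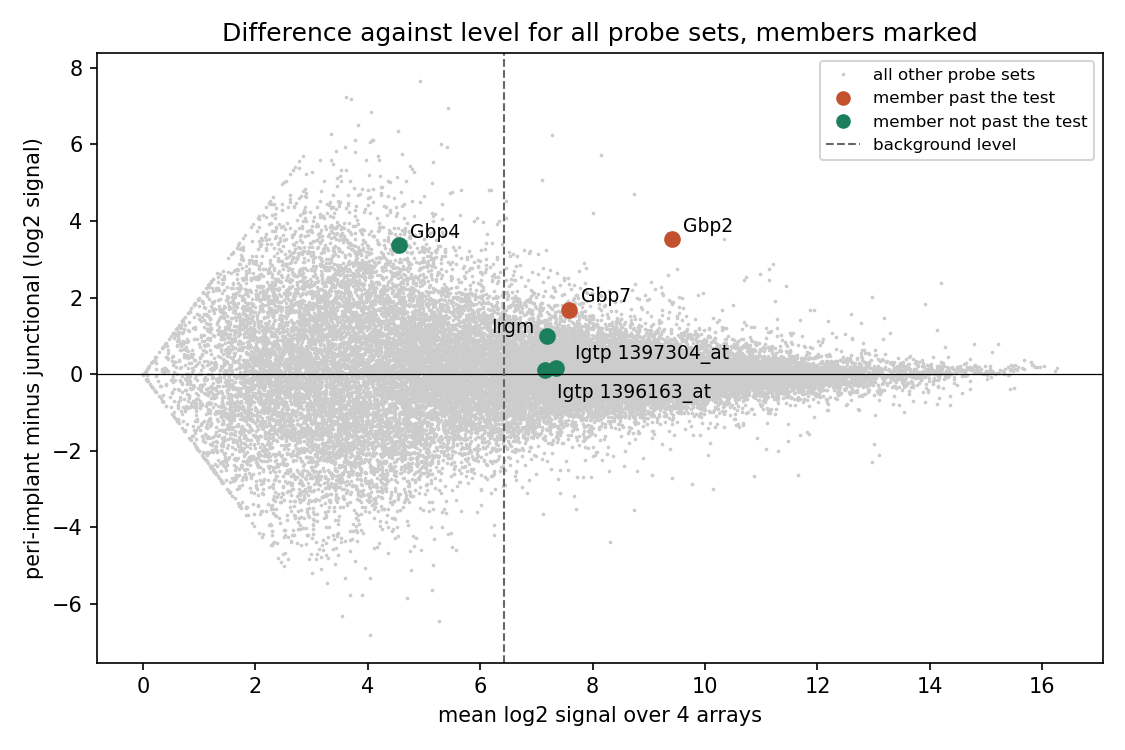
Peri-implant minus junctional difference (y axis, log2 signal) against the mean log2 signal over the 4 arrays (x axis) for all 31042 probe sets (grey), with the members marked and the background level as a dashed line. Gbp2, at a difference of 3.52, lies above nearly all probe sets right of the dashed line, while Gbp4 lies among the widely scattered probe sets below background.

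The genes whose 4 values followed those of Gbp2 most closely were sought among 13036 other probe sets with 1 gene symbol that exceeded background on both peri-implant arrays. Likeness was the root mean square distance between the 4 log2 values, each centred on its own mean, over 4 arrays, and is a description. The nearest was Saa3, an acute phase serum amyloid A, at a distance of 0.088, with 8.60 and 8.55 on the junctional arrays against 12.12 and 12.10 on the peri-implant arrays. Scgb1a1, a secretoglobin, was the last of the 5 nearest, at 0.206, and both it and Saa3 exceeded background on all 4 arrays. The other 3 of the 5 nearest, Cda, which encodes cytidine deaminase, the proprotein convertase gene Pcsk5 and Ppcdc, which encodes an enzyme of coenzyme A synthesis, lay below background on both junctional arrays. They entered the search only through their peri-implant values, and their likeness rests on junctional signals that have no order, so no distance is given for them. Scgb1a1 is named in the series title beside Gbp2, so its likeness was partly set by that choice.

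The interferon-gamma pathway itself was read from fixed gene lists, each gene by its brightest probe set, where 6.6% of 14217 genes were higher and 4.8% lower, with a median difference of 0.05. These lists were made with results of these data known, and with limma's default prior 0 genes passed on any of them, while 16.3% of all genes had an unadjusted p below 0.05 in that fit. Over all 6 lists 21 genes were called higher, and 2 to 7 on leaving out 1 array. Of 16 measured genes for the ligand, receptor and signalling, 4 rose, 0 fell and 12 did not pass, with a median difference of 0.66, or 0.27 with signals raised to the background level. The ligand gene Ifng lay below background on all 4 arrays, at 4.95 and 2.23 on the junctional arrays against 4.87 and 5.03 on the peri-implant arrays. Ifngr2, the signal-transducing chain of the receptor, rose from 8.65 and 8.82 to 10.26 and 10.28 (limma's adjusted p = 0.000328), whereas Ifngr1, the ligand-binding chain, stood at 12.10 and 11.99 against 12.19 and 12.33 and did not pass (limma's adjusted p = 0.156). Among the signalling genes, Socs3, a feedback inhibitor, rose by 1.28, Irf9, an interferon regulatory factor, by 1.14, and Ptpn6, a phosphatase, by 0.86. Ciita, the switch for MHC class II genes, had 5.96 and 3.37 on the junctional arrays against 7.11 and 7.05 on the peri-implant arrays and did not pass (limma's adjusted p = 0.0952). Ifng, Ifngr1 and Irf1 are given for their role in the pathway, and were chosen after their values were seen. Irf1, the transcription factor that interferon-gamma induces and that acts on guanylate-binding protein genes, was 9.23 and 9.76 on the junctional arrays against 9.40 and 9.60 on the peri-implant arrays. Its peri-implant values lay between the junctional ones, and the 95% interval of its difference ran from -0.42 to 0.44.

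Other effectors that interferon-gamma induces had 8 of 20 measured genes higher and 0 lower, with 12 not passing and a median difference of 1.03, or 0.51 with signals so raised. The arrays of the groups did not overlap, with peri-implant higher, for 15 of the 20, against 31.2% of all genes, with 25.2% separated in the lower direction. The 15 include Tap2 and Cxcl9, named after their values were seen. Tap2 lay below background on all 4 arrays, and Cxcl9 barely exceeded it, at 6.43 and 6.46 on the peri-implant arrays only, so their order says little. Cxcl10, a chemokine that draws T cells, was below background in junctional epithelium (3.28 and 5.52) and reached 7.55 and 7.72 at the implant, a rise of at least 2.32-fold when the junctional signal is set at the background level (limma's adjusted p = 0.0243). Icam1, an adhesion molecule for leukocytes, rose by 1.64, Parp14 by 1.49 and the immunoproteasome subunit Psmb8 by 1.44. Tap1, a subunit of the peptide transporter, rose from 7.83 and 6.59 to 8.85 and 8.58. In the same samples 4 of 7 neutrophil and 7 of 17 macrophage and dendritic cell markers rose, against 6.6% of all genes. The part of these cells in the counts above was not tested.

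Of the caspases and inflammasome components that act after guanylate-binding proteins, 3 of 7 measured genes rose and 0 fell, and the median difference was 0.07. Casp4, which senses bacterial lipopolysaccharide in the cytosol, rose from 7.70 and 7.32 to 9.22 and 9.10 (limma's adjusted p = 0.00275). Casp1, which processes interleukin-1 beta, rose from below background (5.71 and 5.63) to 7.65 and 7.56, at least 2.27-fold. Il1b, its substrate, rose by 1.56. Il18, a further substrate, had 8.29 and 8.51 on the junctional arrays against 7.58 and 7.95 on the peri-implant arrays without passing (limma's adjusted p = 0.145). Gsdmd and Pycard were named after their values were seen. Gsdmd, the pore former they cleave, had 7.71 and 8.87 on the junctional arrays against 8.63 and 8.09 on the peri-implant arrays, and did not pass, nor did the adaptor Pycard, with a difference of 0.02.

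Autophagy conjugation proteins, which guide these GTPases to vacuoles, had 1 of 10 measured genes higher and 2 lower, with a median difference of 0.08. Atg5, part of the conjugating complex, rose by 0.57, while the cargo receptor gene Sqstm1 fell by 0.59 and Gabarapl1, a lipid-conjugated tag, fell by 0.53. These calls were not stable: the higher count went from 1 to 0 with arrays centred on their medians, with the pseudocount of 32 and without any 1 array, and the lower count went from 2 to 1 with centring and to 0 with the pseudocount, with signals raised to the background level and without any 1 array. Among other interferon-inducible GTPases and their atlastin relatives, 1 of 6 measured genes, Irgm2, rose and 0 fell, and the median difference was 0.43, or 0.10 with signals raised to the background level. The other 11 of the 17 listed genes were not matched to a probe set. They include every further guanylate-binding protein gene on the list, so these were not measured. The antiviral GTPase Mx1 had 6.65 and 6.14 on the junctional arrays against 6.52 and 7.12 on the peri-implant arrays, with overlapping groups, and the membrane-shaping atlastins Atl2 and Atl3 differed by 0.10 each. Of the type I interferon system and its targets, 4 of 19 measured genes rose and 0 fell (median difference 0.57, or 0.23 with signals so raised). Isg15, a ubiquitin-like modifier, rose by 2.59, Ifit2 by 1.81, Ifit3 by 1.47 and Oas1a by 1.32. Ifnb1, the gene of interferon beta, which was named after its values were seen, lay below background on all 4 arrays.

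**Figure D5:**
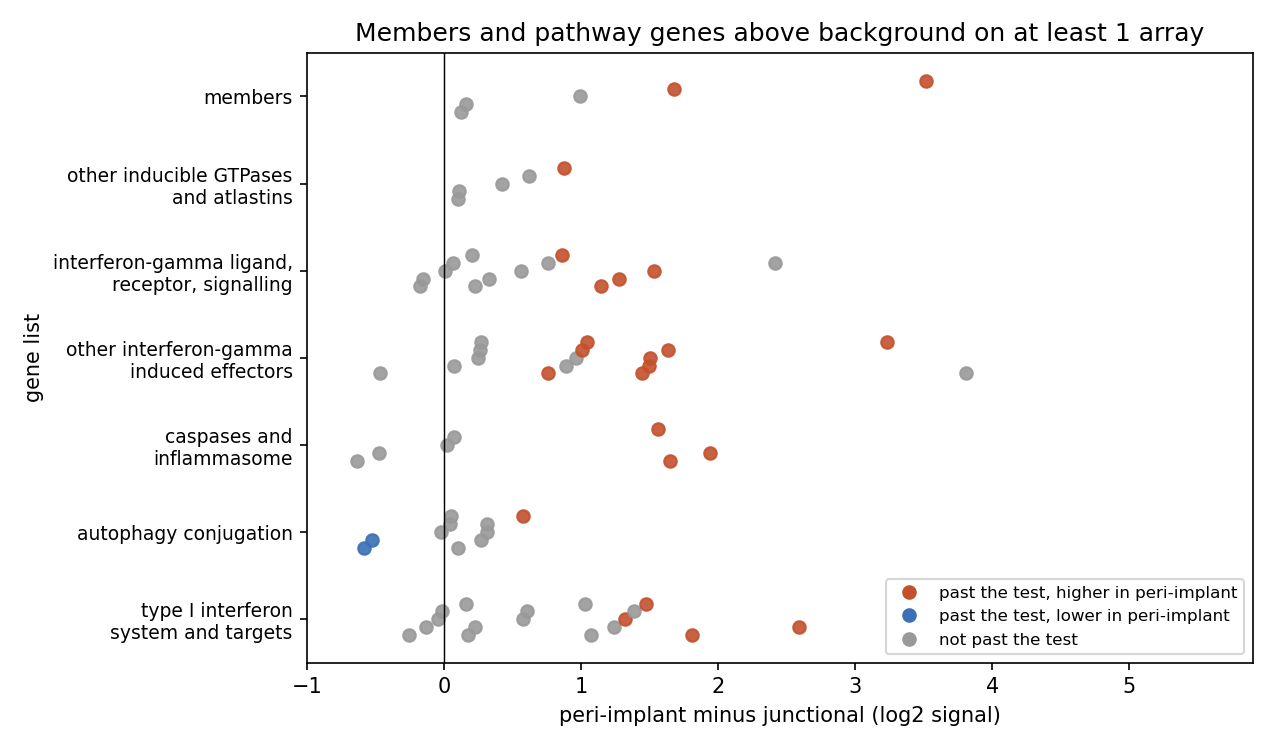
Peri-implant minus junctional difference in log2 signal (x axis) of the members and of the genes on 6 pathway lists (y axis) that exceeded background on at least 1 array. Points are genes (probe sets for the members), red where higher and blue where lower by the test, grey otherwise; the 2 genes that fell are both on the autophagy conjugation list.

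Among all genes on the array with the ISRE core in the upstream window, the members left out, 36 of 333 were higher (10.8%, against 6.6% of all genes) and 9 were lower (2.7%, against 4.8%). These are counts of letters in a window, and 4 of the genes with a GAS directly before the core were measured. Of those, Irgm2 and Parp14 rose and Irgm and Igtp did not pass. Irgm2 and Parp14 are among the 333 and also on the lists above. How many of the 333 exceeded background was not counted. Of all 14217 genes, 3780 lay below it on all arrays.

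Marker genes of other cell types were read beside the members, each by its brightest probe set. Of all genes read so, 6.6% were higher and 4.8% lower. Of 15 measured T and NK cell markers, 8 were below background on all arrays, among them Cd3e, Cd3d, Prf1 and Gzmb. Cd2 rose from 5.34 and 5.79 to 7.57 and 7.90, and Cd247 fell by 0.48. The coreceptor gene Cd4 had 5.35 and 6.31 below background on the junctional arrays against 7.08 and 7.42 on the peri-implant arrays (limma's adjusted p = 0.0916). Cd3g (5.55 and 6.02 against 6.98 and 7.10) and Cd8a (5.41 and 5.94 against 6.43 and 6.96), named after their values were seen, likewise exceeded background only on the peri-implant arrays without passing. Peri-implant was higher without overlap for 7 of 15 markers, against 31.2% of all genes, and lower without overlap for 1, against 25.2%. The 7 include Gzmb, Klrd1 and Ncr1, which lay below background on all 4 arrays, so their order says little. The summed linear signal of the list was 1716 to 1911 in junctional and 1818 to 1897 in peri-implant epithelium, of which Cd247 alone made up 50.2% to 80.1% on each array. The other 14 genes summed to 342 and 619 on the junctional arrays against 858 and 944 on the peri-implant arrays. Of 17 macrophage and dendritic cell markers, 7 rose, among them Laptm5 (by 1.65) and Csf1r (by 1.42), and 1 fell, the mannose receptor gene Mrc1. The summed signal of this list was 17944 to 19860 in junctional and 27821 to 29598 in peri-implant epithelium, of which Lyz2, the lysozyme gene, made up 49.6% to 58.0%. Of 7 neutrophil markers 4 rose, among them the calprotectin subunits S100a9 (by 2.37) and S100a8 (by 0.80), which keratinocytes also make, and the receptor Cxcr2 (by 1.42), with sums of 40181 to 40599 against 91929 to 105170. S100a8 and S100a9 made up 91.8% to 95.2% of these sums, and the other 5 markers summed to 3220 and 3334 on the junctional arrays against 5098 and 5194 on the peri-implant arrays. The part of these cells in the rise of Gbp2 and Gbp7 was not tested.

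Of 7 B and plasma cell markers 0 passed and 6 were below background on all arrays. Their summed signal, 3811 to 4526 in junctional and 3672 to 4296 in peri-implant epithelium, was 94.8% to 98.5% that of Xbp1, a gene many cell types express, and so says little of B cells. Of 9 endothelial markers 0 rose and 1 fell (Egfl7, by 1.37), with sums of 2667 to 2950 against 2135 to 2321. Of 9 fibroblast markers 2 rose (Thy1 by 0.75 and Col1a1 by 0.32) and 1 fell (Pdgfra, by 1.04), with sums of 45728 to 46198 against 51879 to 51887. Col1a1 and Col3a1 made up 68.8% to 73.6% of these sums. The other 7 markers summed to 13832 and 14406 on the junctional arrays against 13707 and 14713 on the peri-implant arrays, and so overlapped. All 9 exceeded background on every array, in samples labelled as epithelium. Of 11 stratified epithelium markers 3 rose, among them Krt17 by 1.83, with sums of 287110 to 296570 in junctional and 322640 to 378810 in peri-implant epithelium. Of the listed junctional epithelium markers, the enamel-related proteins Odam and Amtn were not matched to a probe set. Of the 3 measured, 0 passed, and the median difference was 0.18. Krt19 stood at 13.68 and 13.62 on the junctional arrays against 13.49 and 13.47 on the peri-implant arrays (limma's adjusted p = 0.157). Krt8 (4.09 and 7.11 against 7.13 and 7.32) and Krt18 (6.43 and 6.62 against 6.72 and 6.71) were instead higher on both peri-implant arrays. The lower junctional signal of each was below or close to background.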

How the data were processed

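The authors deposited 1 table of log2 signals from Affymetrix rat arrays, 2 of junctional and 2 of peri-implant epithelium; which software, scaling or detection calls made these values was not stated in the sources used here. RNA came from laser-microdissected frozen sections, amplified and biotin-labelled before hybridization, per the labels' protocols. The values were used as deposited. Of all probe sets, 57 controls were left out and 31042 were tested. Genes were taken from the platform annotation, with symbols updated by gene identifier from RefSeq (GRCr8).

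Differences were fitted in R 4.3.3 with limma 3.58.1 (two-sided, 2 residual degrees of freedom), with a variance prior that follows signal and is robust, and p was adjusted by Benjamini-Hochberg over all probe sets at a threshold of 0.05. The default prior was an alternative whose adjusted p is printed beside the other. Pathway and marker genes were each represented by their brightest probe set. The script was tested on simulated data, where the fit with the trend made somewhat more false calls than its threshold allows and the default fit found none of the changed probe sets. There each probe set's spread followed its signal level alone, which is what the prior with the trend assumes. The simulation therefore cannot decide between the priors for these data. Intervals are 95% intervals of the fit with the trend. Members, lists and the choice of prior were made with earlier results of these data known. Named were all members, up to 5 genes a pathway list and 3 a marker list, first those past the test by size, then by size among those above background, with defining markers at or below background and the 5 genes most like Gbp2.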

Additional observations from a re-analysis of the deposited data

How the results depend on the processing

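Gbp2 was called in 12 of 13 alternatives, the default prior being the exception, with differences from 3.32 to 3.66. Gbp7 was called in 8 of 13, not with the default prior or without any 1 array. The Igtp differences ran from -0.40 to 0.64 (1396163_at) and from -0.0046 to 0.32 (1397304_at) without 1 array, turning sign without junctional array 1 or peri-implant array 2 and without peri-implant array 1. With the default prior 0 probe sets, 0 members and 0 pathway genes passed in either direction, against 1470 higher and 1292 lower probe sets, 2 members, and 21 higher and 2 lower pathway genes otherwise. Leaving out each array in turn gave 59 to 146 higher and 14 to 207 lower probe sets, 1 to 1 members (Gbp2), and 2 to 7 higher and 0 to 0 lower pathway genes; a group then has 1 array, assumed to vary like the other group. With the fit repeated on the brightest probe set of each gene alone, 1051 of 14217 were higher and 759 lower. In the fit over all probe sets, 938 and 682 of the same genes were called. The 2 lower pathway genes became 1 with arrays centred on their medians, 0 with a pseudocount of 32 added to the linear signal and 0 with signals raised to the background level; the cause was not tested. That last alternative left out probe sets below background on every array.

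Replicate numbers are shared between the groups, but same-numbered arrays did not deviate together (r = 0.04 across probe sets). With the replicate number as a block, 2226 probe sets were higher and 1976 lower, and the member calls did not change. Signals near background limit Gbp4, for which no call was possible above it.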
